A study of Mus with 4 samples.

Results

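Purinergic receptors bind nucleotides outside the cell. Of the 31253 genes in the count tables of dissociated mouse dorsal root ganglia (DRGs), 10 were taken by gene symbol for this account, and each was found once: the ATP-gated channel genes P2rx2, P2rx3, P2rx4, P2rx5, P2rx6 and P2rx7, and the G protein-coupled receptor genes P2ry1, P2ry2, P2ry12 and P2ry14. Single cells of the L4 and L5 DRGs were profiled in 2 libraries from mice 3 d after chronic constriction injury (CCI) and in 2 libraries from naive mice (CON). All mice were male wildtype C57BL/6J animals of 6 to 8 weeks at the start. In CCI mice, loose chromic gut ligatures were tied around the left sciatic nerve, which carries axons of L4 and L5 DRG neurons. CON mice had no surgery, so that the effects of ligation and of surgery cannot be told apart. The labels and methods do not say how many mice a library came from, and the p-values below therefore measure the spread between libraries, which may be technical.

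P2X receptors are trimeric channels that open to let cations in when extracellular ATP binds. P2Y receptors act through G proteins and respond to ADP, ATP, UTP or nucleotide sugars. ATP leaves damaged or stimulated cells, ectonucleotidases on cell surfaces break it down to ADP, AMP and adenosine, and adenosine acts on its own receptors. In DRGs, P2X channels on sensory neurons are known as sensors of ATP at nerve endings, and purinergic signalling also links neurons with the satellite glial cells (SGCs) that wrap their cell bodies.

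The libraries held 37451 cell barcodes, and 35113 passed the filter on detected genes (over 500) and on mitochondrial UMIs (below 20%). The kept cells numbered 11155 and 10602 in CCI replicates 1 and 2, against 10743 and 2613 in CON replicates 1 and 2. Unique molecular identifiers (UMIs) count each captured transcript once. The total UMIs were 135009606 and 113530798 in CCI replicates 1 and 2, against 75599766 and 52074235 in CON replicates 1 and 2. The median depth was 3675 and 4552 UMIs per kept cell in the CCI libraries, against 2508 and 8352 in CON replicates 1 and 2, so that CON replicate 2 stood apart with the fewest and deepest cells. Pairs of libraries shared 8 to 29 barcodes, at most 0.344% of the smaller library.

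Cells were clustered without the purinergic genes and named from marker genes, and the suffix -like marks names given in that way. Neurons numbered 3858, with 1493 and 956 in the CCI libraries and 1104 and 305 in the CON libraries. Their subtypes were 797 NP1-like (Mrgprd, Lpar3), 144 NP2-like (Mrgpra3), 141 SST-like (Sst, Nppb), 431 PEP1-like (Tac1, Calca), 213 cLTMR-like (Th, Tafa4), 304 NF2-like (Pvalb, Nefh) and 202 Trpm8-like neurons, and 439 CIP-like neurons with the injury genes Atf3 and Sprr1a. The CIP-like neurons came almost wholly from CCI, with 286 and 148 cells in the CCI libraries and 4 and 1 cells in the CON libraries, and their CON levels are therefore left out. Clusters led by Htr3a, Dcn and Sstr2 took those genes as names. Their top genes held more markers of another subtype or of a non-neuronal class than of the best-matching list. Dcn is a listed fibroblast marker. A cluster of 195 neurons, with a median of 6585 UMIs, stayed unnamed. A further 400 neurons fell in 5 clusters with raised glial markers and were left without a subtype. Of these clusters, 2 were led by genes of the cLTMR-like cluster such as Ceacam10 (116 and 43 cells), and 1 shared Anxa1, Crh and Sprr1a with the CIP-like clusters, with 38 and 25 cells in CCI and none in CON. Another shared Sst and Nppb with the SST-like cluster, with 26 and 10 cells in CCI and 16 and 1 cells in CON. Its cells are not in the SST-like counts and levels. Clusters with neuron markers and few UMIs, 7946 barcodes in all, were kept apart from the neurons.

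Non-neuronal classes included 8365 SGC-like, 3274 Schwann-like, 3393 non-myelinating Schwann-like, 1255 macrophage-like, 2303 endothelial-like, 1497 pericyte-like, 1779 fibroblast-like and 282 antigen-presenting-like cells. The macrophage markers (C1qa, Csf1r and others) summed to 17360 and 20410 CPM in CCI and 14174 and 20823 CPM in CON macrophage-like cells, but to 7 and 16 CPM in CCI and 6 and 5 CPM in CON SGC-like cells. The SGC markers were Fabp7, Apoe, Kcnj10, Glul, Sparc, Ednrb and Ptprz1. They summed to 104923 and 125682 CPM in CCI and 112754 and 127063 CPM in CON SGC-like cells. In macrophage-like cells they still summed to 18561 and 27779 CPM in CCI and 46957 and 57035 CPM in CON. The neuron markers summed to 4703 and 1789 CPM in CCI and to 4090 and 338 CPM in CON SGC-like cells, lowest in CON replicate 2.

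Levels are given as CPM, the UMIs of a gene scaled to a fixed total of UMIs of that class in that library. UMIs were counted at the 3′ ends of transcripts, so that no length scaling was applied, and levels are compared between classes and libraries, not between genes. Neurons held 60.7% of the UMIs of all genes in kept cells. They held 90.7% of the UMIs of P2rx2, 83.9% of P2rx3 and 85.1% of P2ry1, but 45.6% of P2rx4 and 42.4% of P2ry2. SGC-like cells held 65.9% of the P2ry12 UMIs and 47.5% of the P2rx7 UMIs, against 14.6% of all UMIs. Fibroblast-like and pericyte-like cells together held most P2ry14 UMIs, with 45.5% and 26.8%. These shares describe the 4 libraries summed, and no test was made of them.

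**Figure D1:**
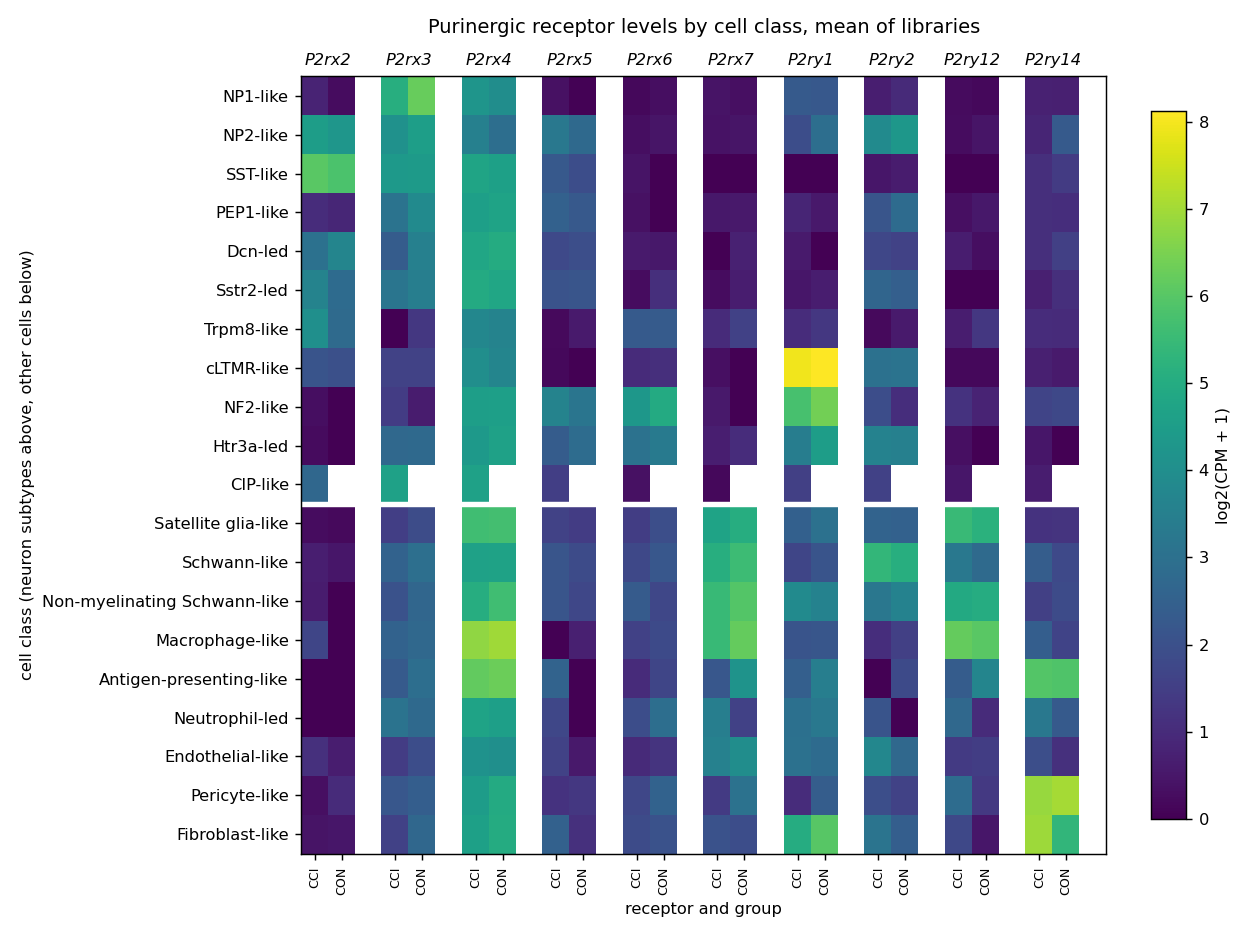
Mean CPM of the 10 receptor genes (columns) in the cell classes (rows) for CCI, shown left of CON, on a log colour scale of CPM, with means taken over libraries with at least 20 cells in the class. P2rx2 stands out in SST-like, P2rx3 in NP1-like, P2ry1 in cLTMR-like, P2ry12 and P2rx4 in macrophage-like, and P2ry14 in pericyte-like and fibroblast-like cells.

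P2rx3 encodes the P2X3 subunit, the classic ATP channel of nociceptors (chr2:84996549-85037108, here and below on GRCm38.p6 from the RefSeq annotation). It counted 5417 UMIs in kept cells. Its highest level among the subtypes with all libraries was in NP1-like neurons, with 40.8 and 25.8 CPM in CCI and 47.0 and 101 CPM in CON. NP2-like neurons followed, with 21.5 and 11.04 CPM in CCI and 22.6 and 63.9 CPM in CON. SST-like neurons had 21.6 and 17.6 CPM in CCI and 20.4 and 46.5 CPM in CON, with 9 cells in CON replicate 2. In the order of levels, NP2-like and SST-like neurons did not differ beyond their spread over libraries, and the NP1-like level was above both in each of the 4 libraries. PEP1-like neurons had 7.38 and 7.61 CPM in CCI and 5.58 and 21.8 CPM in CON. CON replicate 2 was the highest library in all these subtypes. In SGC-like cells P2rx3 had 3.09 and 0.65 CPM in CCI and 5.14 and 0.28 CPM in CON, and the higher values came from the libraries with more of the neuron markers there, CCI replicate 1 and CON replicate 1.

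CIP-like neurons had P2rx3 at 28.5 and 19.6 CPM in the CCI libraries. The level differed among the CIP-like clusters: the cluster led by Anxa1 and Ecel1 had 45.2 and 30.6 CPM in CCI, the cluster led by Tnfaip6 and Gbp2 had 7.73 and 10.5 CPM, and the small cluster led by Crh had 14.9 and 10.7 CPM. The Anxa1 cluster lay slightly above the NP1-like neurons of the same library, and the other clusters lay below it in both CCI libraries. NP1-like neurons were also made of more than one cluster. The largest had 39.2 and 22.2 CPM of P2rx3 in CCI and 44.5 and 96.5 CPM in CON, a second 28.7 and 29.4 CPM in CCI and 36.0 and 108 CPM in CON, and the third 89.1 and 102 CPM in CCI and 129 and 147 CPM in CON. In the largest and the second cluster both CCI libraries were below both CON libraries. The third had the same order, but it held 43 and 7 cells in CCI and 49 and 4 cells in CON.

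The share of NP1-like cells with P2rx3 was compared after each neuron had been thinned to 5000 UMIs. It was 23.4% (95% exact interval 18.2 to 29.2) and 15.8% (9.63 to 23.8) in CCI, against 25.4% (20.5 to 30.9) and 48.1% (36.7 to 59.6) in CON. Thinning left out 13 and 46 CCI cells and 0 and 14 CON cells that were shallower. Unthinned, with median depths of 63076 and 31092 UMIs in CCI and 60515 and 21526 UMIs in CON, the shares were 80.2% and 55.0% in CCI and 78.0% and 87.1% in CON. CCI replicate 1 and CON replicate 1 thus had almost the same share, and the CCI and CON shares were apart mainly through CCI replicate 2 and CON replicate 2. In SGC-like cells thinned to 1500 UMIs, which should lack the channel, the share was 0.57% and 0.24% in CCI and 0.81% and 0% in CON (0 of 922 cells), with median depths of 5418 and 7289 UMIs in CCI and 4133 and 12018 UMIs in CON. The intervals cover counting error only.

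P2rx3 was lower in CCI than in CON NP1-like neurons, with a log2 fold change of -1.12 (SE 0.34, edgeR quasi-likelihood test), but it did not pass the threshold after adjustment over all genes (adjusted p = 0.405). In that test 0 of the 4 receptor genes with enough counts were called, 1 had an unadjusted p under 0.05, and 0.272% of all genes tested were called. The value turned on single libraries. Without CON replicate 2 the log2 fold change was -0.43, whereas without CON replicate 1 it was -1.60 and without CCI replicate 1 it was -1.40. These fits had 1 library in a group, whose spread they could not measure, and their p-values are left out. The CIP markers summed to 258 and 324 CPM in CCI and 100 and 66 CPM in CON NP1-like neurons, and the NP1 markers to 2346 and 1870 CPM in CCI and 2585 and 2481 CPM in CON. The part of these marker levels in the P2rx3 difference was not tested. The CCI effect on P2rx3 in NP1-like minus that in PEP1-like neurons was -0.45 on the log2 scale (SE 0.34, adjusted p = 1). A difference between the subtypes was not shown, and 0.0552% of all genes were called in that test.

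In all neurons together P2rx3 had 20.2 and 12.5 CPM in CCI and 21.9 and 40.6 CPM in CON. The log2 fold change was -0.87 (SE 0.32, adjusted p = 0.199). In such a sum, fewer cells of a subtype and less RNA per cell cannot be told apart: NP1-like neurons made up 17.2% and 16.7% of the neurons in CCI and 26.0% and 30.5% in CON. They held 37.9% and 30.5% of the neuronal P2rx3 UMIs in CCI, against 78.2% and 62.7% in CON. With NP1-like neurons left out, P2rx3 stood at 15.5 and 10.2 CPM in CCI and 7.53 and 20.2 CPM in CON, and the groups overlapped. With CIP-like neurons left out in their place, the log2 fold change was -1.15 (SE 0.32, adjusted p = 0.203). That sum still held the glia-mixed cluster with injury genes, and with all 5 glia-mixed clusters left out as well the value was -1.24 (adjusted p = 0.147). Without CON replicate 2 the difference over all neurons was -0.31, without CON replicate 1 it was -1.28 and without CCI replicate 1 it was -1.22. Outside CIP-like neurons it was -0.61 without CON replicate 2, -1.55 without CON replicate 1 and -1.51 without CCI replicate 1.

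P2rx2 encodes the P2X2 subunit, which can join P2X3 in one channel (chr5:110339812-110343320). Its level was highest in SST-like neurons, the itch neurons marked by Sst and Nppb, with 66.3 and 63.1 CPM in CCI and 55.8 and 74.3 CPM in CON. NP2-like neurons had 20.8 and 22.9 CPM in CCI and 18.3 and 28.0 CPM in CON. The SST-like and NP2-like ranges did not overlap. Trpm8-like neurons came next, with 14.3 and 16.5 CPM in CCI and 6.01 and 13.6 CPM in CON, and the Sstr2-led cluster had 12.98 and 9.89 CPM in CCI and 6.23 and 5.92 CPM in CON. The Dcn-led cluster had 6.87 and 7.49 CPM in CCI and 3.27 and 20.4 CPM in CON. The Trpm8-like, Sstr2-led and Dcn-led ranges overlapped. NP1-like neurons, the subtype with the highest P2rx3, had 0.88 and 0.60 CPM of P2rx2 in CCI and 0.25 and 0.14 CPM in CON. Thinned to 5000 UMIs, 29.3% (95% exact interval 18.1 to 42.7) and 17.6% (6.76 to 34.5) of CCI and 30.8% (17.0 to 47.6) and 44.4% (13.7 to 78.8) of CON SST-like cells had a P2rx2 UMI, against 0.41% and 0% of CCI and 0% and 0% of CON NP1-like cells. Unthinned, the SST-like shares were 93.1% and 82.9% in CCI and 92.3% and 100% in CON. SST-like neurons were too few in CON replicate 2 to be tested.

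P2rx2 and P2rx3 were seldom found in the same thinned neuron. In CCI, 4 of 1435 and 1 of 843 neurons had both, and in CON 1 of 1062 and 0 of 253 neurons had both. At this depth most cells that express either gene yield no UMI of it, so that the counts set no limit on how many neurons express both. SST-like and NP2-like neurons had clear levels of both genes, but other subtypes had both too. Unthinned, P2rx2 was in 34.0% and 27.9% of CCI and 13.6% and 28.6% of CON cells of the Sstr2-led cluster. P2rx3 was in 24.5% and 30.2% of its CCI and 23.7% and 71.4% of its CON cells, with 14 cells in CON replicate 2.

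**Figure D2:**
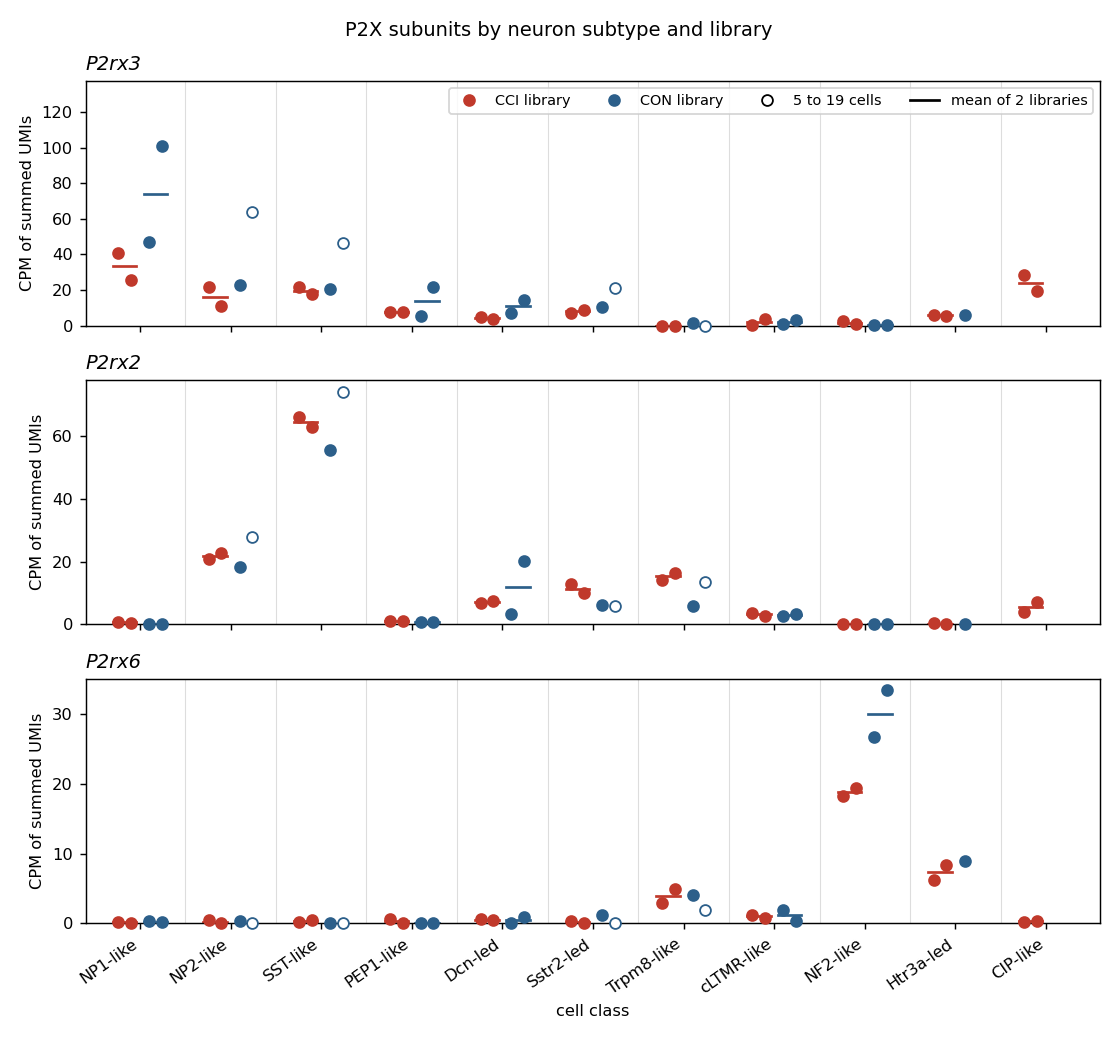
CPM of P2rx3, P2rx2 and P2rx6 in each library (points) of CCI, left, and CON, right, by neuron subtype, with open circles for 5 to 19 cells and no CON points for CIP-like neurons. Among the subtypes shown, P2rx3 is highest in NP1-like neurons with CON replicate 2 at 101 CPM, P2rx2 in SST-like neurons at 55.8 to 74.3 CPM and P2rx6 in NF2-like neurons at 18.3 to 33.4 CPM.

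P2rx6 encodes P2X6, a subunit known to work mainly in channels shared with other P2X subunits (chr16:17561867-17572015). It was highest among the named subtypes in NF2-like neurons, large myelinated neurons with Pvalb, at 18.3 and 19.4 CPM in CCI and 26.8 and 33.4 CPM in CON. The Htr3a-led cluster had 6.21 and 8.42 CPM in CCI and 9.01 CPM in CON replicate 1, with only 3 cells in CON replicate 2, so that its range lay under that of NF2-like neurons. Both CCI libraries of NF2-like neurons were below both CON libraries, with a log2 fold change of -0.57 (SE 0.30, adjusted p = 0.402). In NF2-like neurons 0 of the 4 receptor genes tested were called, 0 had an unadjusted p under 0.05, and 3.99% of all genes were called. Thinned to 5000 UMIs, 9.90% and 4.94% of CCI and 15.4% and 13.6% of CON NF2-like cells had a P2rx6 UMI, against 0.41% and 0% of CCI and 0.35% and 0% of CON NP1-like cells. In the unnamed neuron cluster the shares were 13.3% and 27.8% in CCI and 10.7% and 33.3% in CON. They rested on 83 and 18 CCI and 28 and 3 CON cells. NF2-like neurons were thus not shown to be the highest of all neuron clusters.

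P2rx5 encodes P2X5 (chr11:73155389-73172687) and counted 965 UMIs. Leaving the unnamed neuron cluster aside, its largest levels were in a few neuron subtypes. NF2-like neurons had 15.4 and 7.37 CPM in CCI and 6.47 and 9.21 CPM in CON. NP2-like neurons had 8.55 and 8.68 CPM in CCI and 5.85 and 11.05 CPM in CON. PEP1-like neurons had 5.39 and 4.10 CPM in CCI and 2.88 and 4.70 CPM in CON. The NF2-like and NP2-like ranges overlapped, and so did CCI and CON in each of these subtypes. CCI replicate 1 was the highest library in NF2-like neurons, and no fold change is given at these levels.

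P2rx4 encodes P2X4, a channel known from microglia and macrophages as well as neurons (chr5:122707518-122729739). It was found in most classes. Macrophage-like cells had 85.5 and 131 CPM in CCI and 90.9 and 159 CPM in CON. Antigen-presenting-like cells had 73.4 and 69.0 CPM in CCI and 84.5 and 71.5 CPM in CON, from 14 to 66 UMIs per library, and SGC-like cells had 55.5 and 42.3 CPM in CCI and 36.4 and 65.5 CPM in CON. The macrophage-like range lay above that of SGC-like cells, and the antigen-presenting-like range lay between them, without overlap with either. Neurons had 23.8 and 19.4 CPM in CCI and 16.7 and 20.5 CPM in CON, with the Sstr2-led and Dcn-led clusters at 25.6 to 32.0 CPM in CCI and 22.9 to 39.5 CPM in CON. In the 12 tested classes with a mean of at least 20 CPM, the log2 fold change was between -0.56 and 0.29, the smallest adjusted p was 0.529, and CCI and CON overlapped in all 12.

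P2rx4 overlaps Camkk2 in the annotation, and no source used here says whether reads were counted by strand. Thinned to 1500 UMIs, 10.6% and 20% of CCI and 12.5% and 26.3% of CON macrophage-like cells had a P2rx4 UMI, against 8.67% and 5.69% of CCI and 5.37% and 8.68% of CON SGC-like cells. In erythrocyte-like cells, taken as background, P2rx4 was found in 2 of 115 and 0 of 41 CCI cells and in 3 of 234 and 0 of 3 CON cells.

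P2rx7 encodes P2X7, a channel that opens at high ATP and is known for its part in cytokine release by macrophages (chr5:122643927-122692336). Its highest levels were in macrophage-like and Schwann lineage cells and not in neurons. Macrophage-like cells had 40.8 and 45.3 CPM in CCI and 44.2 and 102 CPM in CON. Non-myelinating Schwann-like cells had 39.7 and 48.1 CPM in CCI and 47.8 and 73.3 CPM in CON, and Schwann-like cells had 29.8 and 37.1 CPM in CCI and 36.5 and 55.6 CPM in CON. These 3 ranges overlapped. SGC-like cells had 22.9 and 27.7 CPM in CCI and 30.8 and 33.5 CPM in CON, and endothelial-like cells had 12.01 and 9.94 CPM in CCI and 14.1 and 15.8 CPM in CON, a lower range. The SGC-like range overlapped that of Schwann-like cells but not that of non-myelinating Schwann-like cells. Neurons had 0.37 and 0.42 CPM in CCI and 0.62 and 0.28 CPM in CON, although their libraries were the deepest.

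In SGC-like cells both CCI libraries were below both CON libraries for P2rx7, with a log2 fold change of -0.26 (SE 0.22, adjusted p = 0.998). In that class 0 of the 9 receptor genes tested were called, 0 had an unadjusted p under 0.05, and 0.00764% of all genes were called. The 95% interval of the log2 fold change, taken by the normal distribution, reached from -0.68 to 0.17, which is too narrow for so few libraries. In macrophage-like cells the value was -0.84 (SE 0.54, adjusted p = 0.936), in non-myelinating Schwann-like cells -0.42 (SE 0.33, adjusted p = 0.9997) and in Schwann-like cells -0.41 (SE 0.33, adjusted p = 0.9997), with overlapping groups in each, and 0% of all genes were called in these 3 classes. CON replicate 2 was the highest library in all 4 classes.

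P2ry1 encodes P2Y1, a receptor for ADP (chr3:61002785-61008982). It was concentrated in cLTMR-like neurons, the low-threshold mechanoreceptors of hairy skin marked by Th and Tafa4, with 271 and 221 CPM in CCI and 287 and 269 CPM in CON. These neurons were 4.15% and 5.33% of the neurons in CCI and 6.43% and 9.51% in CON. They held 68.6% and 58.3% of the neuronal P2ry1 UMIs in CCI and 62.8% and 73.3% in CON. The glia-mixed clusters led by cLTMR genes, which are not counted in these shares, also had P2ry1, the larger at 127 and 141 CPM in CCI and 197 and 219 CPM in CON. With both added, the share of neurons was 5.56% and 14.5% in CCI and 9.601% and 14.4% in CON, so that the groups overlapped. NF2-like neurons came next among the named subtypes, at 42.7 and 63.1 CPM in CCI and 91.9 and 74.3 CPM in CON, below the cLTMR-like range. The Htr3a-led cluster had 9.41 and 10.2 CPM in CCI and 21.7 CPM in CON replicate 1, and CIP-like neurons had 2.65 and 1.22 CPM in CCI. Outside neurons, fibroblast-like cells had 33.7 and 29.1 CPM in CCI and 39.3 and 86.6 CPM in CON, where CON replicate 2 rested on 31 UMIs.

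After thinning to 5000 UMIs, 77.4% (95% exact interval 65.0 to 87.1) and 64.7% (50.1 to 77.6) of CCI and 71.8% (59.9 to 81.9) and 79.3% (60.3 to 92.0) of CON cLTMR-like cells had a P2ry1 UMI. The shares were 1.23% and 3.51% in CCI and 1.39% and 1.27% in CON NP1-like cells. Unthinned, P2ry1 was found in 100% of cLTMR-like cells in each library. NF2-like cells reached 7.92% and 23.5% in CCI and 16.9% and 9.09% in CON, with CCI and CON intermixed. The 5 glia-mixed clusters together reached 6.67% and 23.3% in CCI and 20.5% and 26.3% in CON.

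In all neurons P2ry1 had 18.4 and 26.0 CPM in CCI and 37.5 and 68.1 CPM in CON. The log2 fold change was -1.18 (SE 0.31) and missed the threshold (adjusted p = 0.0771). All 10 receptor genes were tested in neurons and 0 were called by edgeR, 2 had an unadjusted p under 0.05, and edgeR called 4.6% of all genes. DESeq2 called 1 receptor gene, P2ry1, where it called 6.42% of all genes. The median log2 fold change of the 10 genes was -0.14, against -0.01 over all genes tested. Outside the CIP-like clusters P2ry1 stood at 23.9 and 33.4 CPM in CCI and 37.6 and 68.7 CPM in CON, with a log2 fold change of -0.86 (SE 0.31, adjusted p = 0.366). There 0 receptor genes were called by edgeR, 2 had an unadjusted p under 0.05, and edgeR called 1.51% of all genes. DESeq2 called 1, P2rx3, where it called 2.32% of all genes. With the 5 glia-mixed clusters left out as well, P2ry1 had a log2 fold change of -0.74 (adjusted p = 0.498).

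The subtypes gave unequal shares of the neuronal UMIs in the 4 libraries. Of the neuronal UMIs of all genes, cLTMR-like neurons gave 4.71% and 7.03% in CCI and 8.29% and 18.6% in CON. With the 2 glia-mixed clusters of cLTMR genes added they gave 5.22% and 9.10% in CCI and 10.96% and 22.99% in CON. CIP-like neurons, which had little P2ry1, gave 25.8% and 23.0% in CCI and 0.31% and 0.84% in CON. With cLTMR-like neurons left out, the level was 6.06 and 11.6 CPM in CCI and 15.2 and 22.3 CPM in CON, and with CIP-like neurons left out too it was 7.34 and 15.0 CPM in CCI and 15.2 and 22.6 CPM in CON. These sums kept the glia-mixed clusters. With the cLTMR-led ones left out beside cLTMR-like neurons it was 4.85 and 7.49 CPM in CCI and 8.64 and 8.03 CPM in CON. With CIP-like neurons and the glia-mixed cluster with injury genes left out too, it was 5.81 and 9.91 CPM in CCI and 8.62 and 8.11 CPM in CON, and the groups overlapped. Within cLTMR-like neurons the groups overlapped, with a log2 fold change of -0.21 (SE 0.17, adjusted p = 0.99995, normal 95% interval -0.55 to 0.12). Of all genes, 0.0375% were called there. The cLTMR markers summed to 1998 and 2010 CPM in CCI and 1748 and 1848 CPM in CON in these cells. Within NF2-like neurons both CCI libraries were below both CON libraries, and P2ry1 had a log2 fold change of -0.54 (SE 0.28, adjusted p = 0.383). The part of the subtype shares in the P2ry1 difference over all neurons was not tested.

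The P2ry1 value over all neurons also turned on single libraries. Without CON replicate 1 the log2 fold change of P2ry1 was -1.58 and without CCI replicate 2 it was -1.49. Without CCI replicate 1 it was -0.92 and without CON replicate 2 it was -0.63. Outside the CIP-like clusters it was -1.26 without CON replicate 1 and -0.32 without CON replicate 2.

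**Figure D3:**
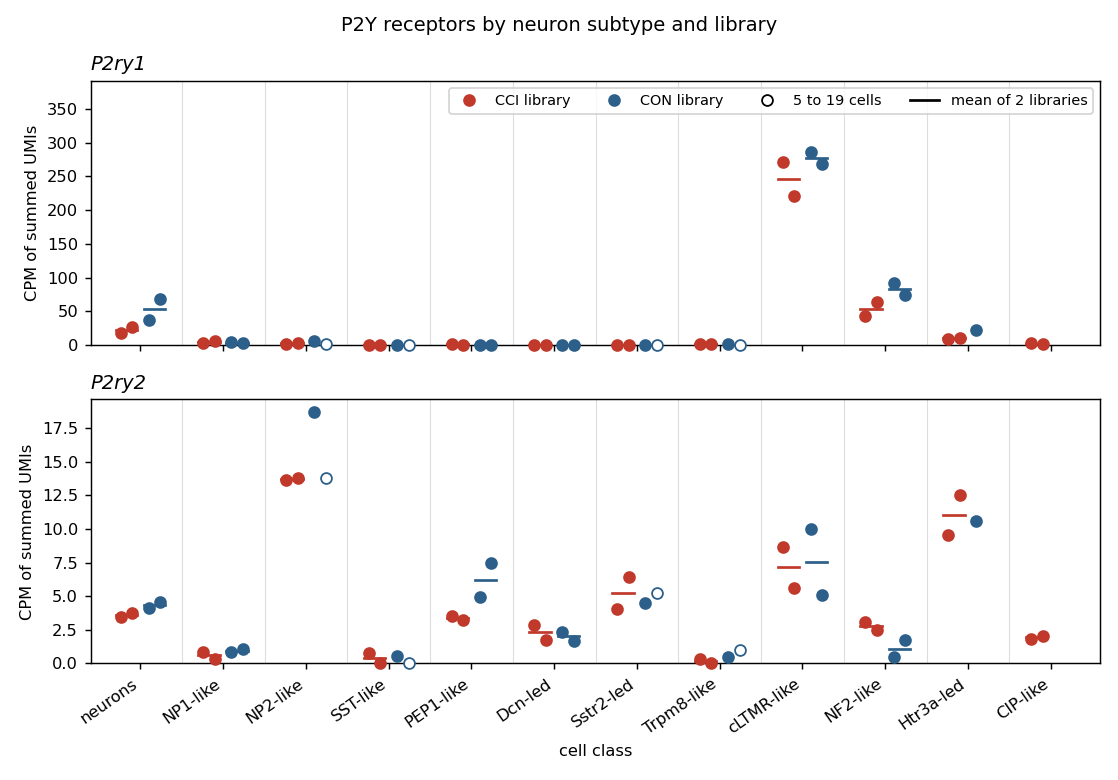
CPM of P2ry1 and P2ry2 in each library of CCI, left, and CON, right, in all neurons and by neuron subtype, with open circles for 5 to 19 cells. P2ry1 lies at 221 to 287 CPM in cLTMR-like neurons in all 4 libraries, and over all neurons the CCI libraries, at 18.4 and 26.0 CPM, are below the CON libraries, at 37.5 and 68.1 CPM.

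P2ry2 encodes P2Y2, a receptor for ATP and UTP (chr7:100996568-101012053). Its highest level was in Schwann-like cells, with 43.1 and 38.3 CPM in CCI and 36.5 and 29.4 CPM in CON. Both CCI libraries were above both CON libraries, but the log2 fold change was 0.33 (SE 0.29, adjusted p = 0.9997, normal 95% interval -0.24 to 0.90). NP2-like neurons had 13.7 and 13.8 CPM in CCI and 18.7 and 13.8 CPM in CON, and the Htr3a-led cluster had 9.59 and 12.5 CPM in CCI and 10.6 CPM in CON replicate 1. These neuronal ranges lay below that of Schwann-like cells. SGC-like cells had 5.29 and 4.68 CPM in CCI and 3.76 and 5.74 CPM in CON. Thinned to 1500 UMIs, 6.91% and 7.07% of CCI and 5.41% and 3.95% of CON Schwann-like cells had a P2ry2 UMI, against 0.71% and 0.52% of CCI and 0.47% and 1.302% of CON SGC-like cells.

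P2ry12 encodes P2Y12, an ADP receptor known as a marker of brain microglia (chr3:59216271-59262985). In the DRG libraries it was found in macrophage-like cells and in SGC-like cells. Macrophage-like cells had 59.2 and 85.6 CPM in CCI and 41.7 and 86.9 CPM in CON. SGC-like cells had 40.2 and 48.4 CPM in CCI and 22.2 and 49.3 CPM in CON, and non-myelinating Schwann-like cells had 22.2 and 36.4 CPM in CCI and 16.8 and 46.1 CPM in CON. The ranges of neighbouring classes overlapped in this order, and within each library the level was highest in macrophage-like and lowest in non-myelinating Schwann-like cells. The macrophage markers summed to 5 to 16 CPM in SGC-like cells, against 14174 to 20823 CPM in macrophage-like cells. The SGC markers, among them Apoe and Glul, were also found in macrophage-like cells, at a higher level in CON than in CCI. Their sum does not tell RNA of SGCs from RNA that macrophages make themselves. The part of RNA from the other class in the P2ry12 levels of either class was not tested. Neurons had 0.45 and 0.60 CPM in CCI and 0.39 and 0.45 CPM in CON.

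P2ry12 lies within Med12l in the annotation. Between neurons and SGC-like cells Med12l had the opposite order. It had 19.2 and 14.7 CPM in CCI and 25.2 and 19.7 CPM in CON neurons, but 5.69 and 3.59 CPM in CCI and 6.03 and 4.05 CPM in CON SGC-like cells. The part of Med12l transcripts in the P2ry12 counts was not tested. Thinned to 1500 UMIs, 5.91% and 6.76% of CCI and 3.15% and 7.48% of CON SGC-like cells had a P2ry12 UMI, against 0% and 0.18% of CCI and 0.50% and 0% of CON endothelial-like cells, whose median depths were 6844 and 8295 UMIs in CCI and 4699 and 13390 UMIs in CON. CON replicate 1 was the lowest library in all 3 classes with P2ry12. The log2 fold change was 0.41 (SE 0.42, adjusted p = 0.998) in SGC-like, 0.10 (SE 0.54, adjusted p = 0.989) in macrophage-like and -0.05 (SE 0.57, adjusted p = 0.9997) in non-myelinating Schwann-like cells, and CCI and CON overlapped in each.

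P2ry14 encodes P2Y14, a receptor for UDP-glucose and related nucleotide sugars (chr3:59114623-59153492, also overlapping Med12l). By the mean over the 4 libraries it was highest in pericyte-like cells, with 88.0 and 144 CPM in CCI and 76.8 and 184 CPM in CON, and groups overlapped with a log2 fold change of 0.02 (SE 0.49). Fibroblast-like cells had 107 and 136 CPM in CCI and 36.9 and 41.9 CPM in CON, from 218 and 792 UMIs in CCI and 47 and 15 UMIs in CON, and this range overlapped that of pericyte-like cells. In CCI the fibroblast-like mean, 121.5 CPM, was above the pericyte-like mean, 115.9 CPM. Both CCI libraries were above both CON libraries in fibroblast-like cells, with a log2 fold change of 1.83 (SE 0.33). This had an unadjusted p under 0.05 but an adjusted p of 0.656, and 0% of all genes were called in fibroblast-like cells. Antigen-presenting-like cells had 43.7 and 78.4 CPM in CCI and 13.3 and 102 CPM in CON, from 3 to 75 UMIs per library.

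The P2ry14 difference in fibroblast-like cells kept its sign with each library left out, at 1.57 to 2.08 on the log2 scale, and did not pass the threshold in any of these fits. It passed with no filter on low counts (log2 fold change 1.89, adjusted p = 0.00067) and not with DESeq2 (1.80, adjusted p = 0.0734). The share of all genes called in these cells with no filter is not given. Thinned to 1500 UMIs, 10.5% (95% exact interval 7.56 to 14.2) and 15.2% (12.8 to 17.8) of CCI and 5.71% (3.57 to 8.59) and 6.67% (1.40 to 18.3) of CON fibroblast-like cells had a P2ry14 UMI, and the background share in SGC-like cells was 0.29% and 0.20% in CCI and 0.09% and 0.33% in CON. In fibroblast-like cells the pericyte markers summed to 88 and 125 CPM in CCI and 152 and 106 CPM in CON, and the neuron markers to 5817 and 2437 CPM in CCI and 5354 and 424 CPM in CON. The part of these marker levels was not tested. Fibroblast-like cells numbered 413 and 891 in CCI and 430 and 45 in CON.

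**Figure D4:**
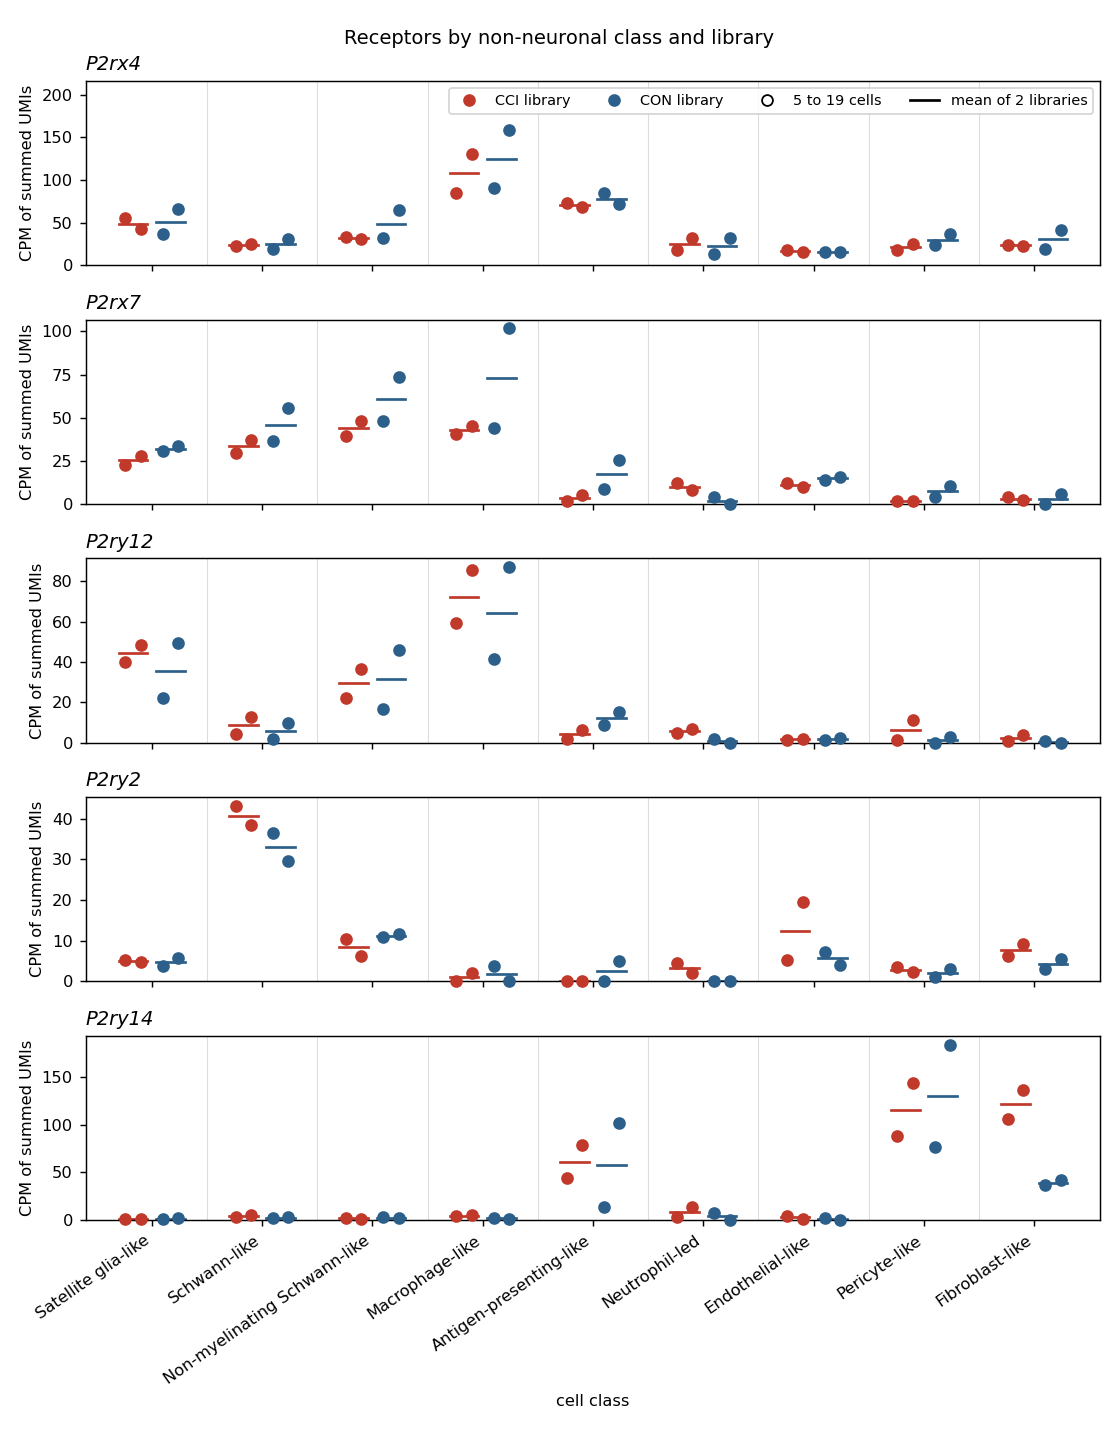
CPM of P2rx4, P2rx7, P2ry12, P2ry2 and P2ry14 in each library of CCI, left, and CON, right, in non-neuronal classes. In fibroblast-like cells P2ry14 has 107 and 136 CPM in CCI, above 36.9 and 41.9 CPM in CON, while P2rx4, P2rx7 and P2ry12 overlap in macrophage-like cells.

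Over the 16 classes with at least 20 cells in each library, 77 of 160 pairs of a receptor gene and a class had enough counts to be tested, and edgeR called 0 of them. An unadjusted p under 0.05 was found in 7 of the 77. Of these, 6 had a mean of at least 20 CPM: P2ry14 in fibroblast-like cells, P2ry1 and P2rx3 in all neurons and in neurons outside the CIP-like clusters, and P2rx3 in NP1-like neurons. The neuron classes share cells, so that the same UMIs of P2rx3 and P2ry1 were counted repeatedly. The share of all genes with an unadjusted p under 0.05 is not given for any class. The unadjusted counts here and above therefore cannot be set against it. DESeq2 called P2ry1 in all neurons and P2rx3 outside the CIP-like clusters. Of all genes, edgeR called 0.11% in PEP1-like and 0.0857% in Dcn-led neurons, where it called 0 receptor genes too.

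**Figure D5:**
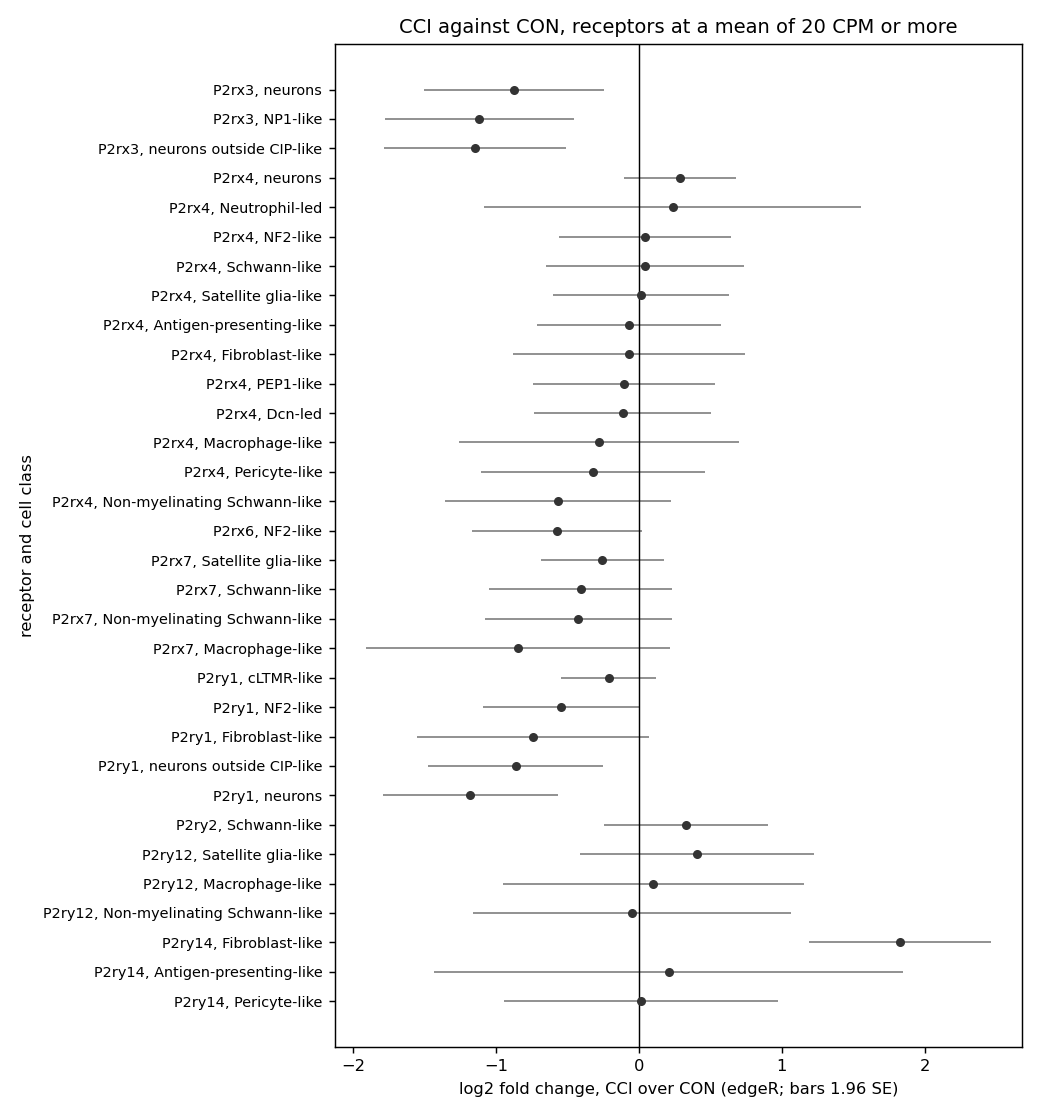
Log2 fold change of CCI over CON (point) with its normal 95% interval (bar) for the 32 pairs of receptor gene and class with a mean of at least 20 CPM. The bars are too narrow for so few libraries. P2ry14 in fibroblast-like cells lies at 1.83, P2rx3 and P2ry1 in neurons lie between -1.18 and -0.86, with P2rx3 in NP1-like neurons at -1.12, and the other bars cross 0.

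The genes with the pattern most like each receptor gene over the summed counts of 80 library and class pairs were ranked by Pearson's r on log2(CPM + 1) among 11495 genes. These points share libraries and cells, and r is given as a description. They were not held to at least 20 cells. In CON replicate 2 the CIP-like sum came from 1 cell and the Htr3a-led sum from 3 cells, and both were used. For P2rx3 they were Scn11a (r = 0.79), a sodium channel gene of nociceptors, and Unc13c (0.79). For P2rx2 they were Hpcal1 (0.78) and Setd3 (0.77), and for P2rx6 Lgi3 (0.90), Fgf9 (0.89) and Vsnl1 (0.88). For P2rx4 the closest gene was Rbpj (0.82), and for P2rx5 it was Resp18 (0.67), the weakest first match. P2ry12 had Lpcat2 (0.88) and another of the receptor genes, P2rx7 (0.87), whereas P2rx7 itself had Qk (0.90). P2ry1 was closest to Tmem132c (0.76) and Gpx2 (0.75), P2ry2 to Mmp15 (0.72) and the myelin gene Pmp22 (0.72), and P2ry14 to Crispld2 (0.87) and Vtn (0.84).

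Of 34 further genes of the purinergic pathway, 5 of the 22 tested in neurons were called, 3 higher and 2 lower in CCI, where 4.04% of all genes were called higher and 0.555% lower. Of the adenosine uptake and breakdown group, 3 of 6 genes tested rose. Slc29a2, a nucleoside transporter gene, had 10.1 and 7.57 CPM in CCI and 1.52 and 2.86 CPM in CON neurons (log2 fold change 2.10, SE 0.33, adjusted p = 0.00801). Pnp, the purine nucleoside phosphorylase gene, had 57.7 and 71.1 CPM in CCI and 21.8 and 34.6 CPM in CON (log2 fold change 1.27, SE 0.26, adjusted p = 0.0295). Slc28a2, another nucleoside transporter gene, had only 18 and 19 UMIs in CCI and 1 and 0 UMIs in CON (adjusted p = 0.0443). Slc29a2 and Pnp were high in CIP-like neurons, at 19.4 and 14.7 CPM and at 89.5 and 115 CPM in CCI. Outside the CIP-like clusters Slc29a2 had 6.89 and 5.42 CPM in CCI and 1.51 and 2.78 CPM in CON (adjusted p = 0.0658), and Pnp had 46.6 and 58.0 CPM in CCI and 21.8 and 34.2 CPM in CON (adjusted p = 0.192), so that neither passed there. These sums still held the glia-mixed cluster with injury genes, and without it Slc29a2 had 6.29 and 5.23 CPM and Pnp 44.9 and 56.6 CPM in the CCI libraries.

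Of the ectonucleotidases, 1 of 8 tested in neurons fell. Acpp, the prostatic acid phosphatase gene, whose product makes adenosine from AMP, had 155 and 132 CPM in CCI and 298 and 254 CPM in CON (log2 fold change -0.87, SE 0.18, adjusted p = 0.0280). In NP1-like neurons, where Acpp was at 405 and 341 CPM in CCI and 476 and 400 CPM in CON, its log2 fold change was -0.19 (adjusted p = 0.884), and CIP-like neurons had 29.2 and 14.2 CPM in CCI. Of the ATP release and storage group, 1 of 5 tested fell, the channel gene Calhm2, at 0.88 and 0.81 CPM in CCI and 2.59 and 2.44 CPM in CON (log2 fold change -1.50, SE 0.30, adjusted p = 0.0256). Acpp and Calhm2 lost the call without CCI replicate 1 and without CCI replicate 2, and Slc28a2 lost it without CON replicate 2. Those fits had 1 library in a group, whose spread they could not measure, and their p-values are left out. Slc28a2 also lost the call with DESeq2 (adjusted p = 0.162). None of the 3 adenosine receptor genes tested in neurons was called, 1 had an unadjusted p under 0.05, and the 6 other P2 receptor genes were too low in neurons to be tested.

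In NF2-like neurons 2 of 12 pathway genes tested were called, 1 higher and 1 lower, where 3.49% of all genes were called higher and 0.497% lower. Pnp had 41.4 and 24.8 CPM in CCI and 13.4 and 15.0 CPM in CON (log2 fold change 1.32, SE 0.34, adjusted p = 0.0248). Adora2a, an adenosine receptor gene, had 2.20 and 2.46 CPM in CCI and 8.32 and 9.21 CPM in CON (log2 fold change -1.79, SE 0.49, adjusted p = 0.0396), from 10 to 18 UMIs per library. With DESeq2 both missed the threshold (adjusted p = 0.0904 for Pnp and 0.254 for Adora2a). Pnp also missed it without CCI replicate 1 and without either CON replicate, and Adora2a missed it with each library left out in turn. Those fits had 1 library in a group, whose spread they could not measure, and their p-values are left out. Over all 16 classes 239 tests were made of these genes, of which 4 were called higher and 3 lower in CCI.

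The pathway genes were spread over the classes in their own way. Entpd1, which breaks down ATP and ADP, was highest in endothelial-like cells at 131 and 169 CPM in CCI and 141 and 169 CPM in CON. Entpd2, which breaks down ATP, was highest by the mean over the libraries in non-myelinating Schwann-like cells. They had 470 and 560 CPM in CCI and 197 and 166 CPM in CON. SGC-like cells had 242 and 301 CPM in CCI and 163 and 237 CPM in CON. The non-myelinating Schwann-like range was thus the higher one in CCI, but the ranges overlapped in CON. Between CCI and CON, edgeR called 0 of the 7 ectonucleotidase genes tested in non-myelinating Schwann-like cells. Entpd3 was highest in NF2-like neurons, at 64.5 and 60.7 CPM in CCI and 123 and 103 CPM in CON. Nt5e, the gene of the AMP-hydrolysing enzyme CD73, was highest in SST-like neurons, at 143 and 120 CPM in CCI and 99.4 and 125 CPM in CON. SST-like neurons thus held the highest level of Nt5e beside the highest level of P2rx2. Of the other P2 receptor genes, P2ry6, a receptor for UDP, was highest in macrophage-like cells at 131 and 187 CPM in CCI and 155 and 267 CPM in CON. P2ry13, a receptor for ADP, had 25.0 and 19.3 CPM in CCI and 20.2 and 54.1 CPM in CON macrophage-like cells. P2ry4 and Calhm1 had 0 UMIs in each class.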

How the data were processed

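The authors deposited raw UMI counts for every gene in every barcode, made from 10x Genomics 3′ libraries with Cell Ranger 5.0.1 on mm10. The cell filter required over 500 detected genes and a mitochondrial share of UMIs below 20%. The 13 mitochondrial genes were then left out. Libraries were integrated in Seurat 5.3.0 (sctransform 0.4.2, R 4.3.3) with 2000 features, 10 principal components and resolution 0.8, leaving out 44 purinergic genes. A cluster was named when at least 3 listed markers were 1.5 times the other cells, and subtypes also needed a mean log2 fold of 1. Neuron clusters whose top genes held more markers of another subtype or of a non-neuronal class were named by a leading gene. No doublet caller was run and no doublets were removed.

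Sums of UMIs over the cells of a class in a library were tested with edgeR 4.0.16 (quasi-likelihood, TMM, filterByExpr, Benjamini-Hochberg over all genes, adjusted p under 0.05), in classes with at least 20 cells in every library. Each fit used the 2 CCI and 2 CON sums of a class, and the subtype difference used the library as a block. CPM are plain UMI counts scaled to the class total. A count of 0 allows up to 3 UMIs. Fold changes are given where the mean was at least 20 CPM or a listed pathway gene passed the threshold. All 10 receptor genes were named in the classes where they were highest, with called pathway genes, up to 4 more per group by level and up to 3 genes of like pattern. With 2 libraries against 2, an exact permutation test cannot go below a 2-sided p of 0.333, so none was made. The receptor genes, lists and tests were chosen with earlier results of these data known. The fits were tested on simulated data. The alternatives tried were upper-quartile factors, DESeq2 1.42.0, no low-count filter, a stricter cell filter (more than 1000 genes, under 10% mitochondrial UMIs), thinned sums, cells assigned by marker score, low-UMI barcodes added, the replicate block, each library left out and, chosen after seeing the data, neuron clusters mixed with glia left out, from all neurons and from those outside the CIP-like clusters. A glia-mixed cluster was said to be led by the genes of a subtype where at least 3 of its top 10 genes were in the top 10 of a cluster of that subtype.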

Additional observations from a re-analysis of the deposited data

How the results depend on the processing

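With 2 libraries per group, counts of 0 or 1 called genes moved easily. Fits with a library left out had 1 library in a group, so that the spread within that group was not measured. In all neurons 0 receptor genes were called, but 1 with DESeq2, 2 with no filter on low counts, 1 with the stricter cell filter and 1 with cells assigned by marker score, and 0 to 2 with single libraries left out. Upper-quartile factors, thinned sums, low-UMI barcodes added and glia-mixed clusters left out also called 0 there, and outside the CIP-like clusters the last of these again called 0. Outside the CIP-like clusters the numbers were 1 with DESeq2, 2 with no filter and 0 to 2 with libraries left out. NP1-like neurons had 1 with no filter and 0 to 1 with libraries left out, PEP1-like neurons 0 to 1 with libraries left out, and fibroblast-like cells 1 with no filter. Of the pathway list, 5 genes were called in neurons, 3 by marker score and 2 to 9 with libraries left out. Outside the CIP-like clusters the pathway list gave 0, against 2 with DESeq2, 3 with no filter, 1 with low-UMI barcodes added and 0 to 2 with libraries left out. In NF2-like neurons it gave 2, against 0 with DESeq2, 1 with thinned sums and 0 to 1 with libraries left out. No filter gave 1 pathway gene in NP1-like, 2 in macrophage-like and 1 in fibroblast-like cells, marker score gave 1 in non-myelinating Schwann-like cells, and libraries left out gave 0 to 1 in NP1-like, PEP1-like and Dcn-led neurons. In neurons 713 of 15502 genes (4.6%) were called, and 995 (6.42%) with DESeq2. With no filter, where more genes were tested, 1655 were called. Outside the CIP-like clusters 1.51% of all genes were called, and 2.32% with DESeq2. In NP1-like neurons 33 of 12139 genes (0.272%) were called, but 68 with DESeq2. For the other alternatives the share of all genes is not given. Their counts of receptor and pathway genes therefore cannot be set against it.

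The replicate block gave 1 receptor gene in all neurons, 1 outside the CIP-like clusters and 1 in NP1-like neurons, and 2 and 1 pathway genes in the last 2 groups. It raised the calls over all genes to 2005 in neurons, 436 outside the CIP-like clusters and 405 in NP1-like neurons. Deviations of same-numbered libraries correlated at 0.03 to 0.66, with only 2 pairs, so that the numbers are not known to pair the libraries.

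The small fold changes had no stable sign. With libraries left out, P2rx4 ranged from -0.46 to 0.31 in PEP1-like, -0.12 to 0.26 in NF2-like, -0.51 to 0.31 in Dcn-led, -0.33 to 0.47 in SGC-like, -0.68 to 0.35 in macrophage-like, -0.30 to 0.40 in Schwann-like, -0.92 to 0.072 in non-myelinating Schwann-like, -0.63 to 0.43 in fibroblast-like, -0.46 to 0.87 in neutrophil-led and -0.091 to 0.060 in antigen-presenting-like cells. P2ry12 ranged from -0.041 to 1.06 in SGC-like, -0.38 to 0.89 in macrophage-like and -0.52 to 0.92 in non-myelinating Schwann-like cells. P2rx7 ranged from -1.37 to 0.048 in macrophage-like cells, P2ry14 from -0.51 to 0.67 in pericyte-like and -0.62 to 2.41 in antigen-presenting-like cells, and the NP1-like against PEP1-like difference of P2rx3 from -0.98 to 0.020. P2rx4 also changed sign in NF2-like neurons with upper-quartile factors (-0.0030), in Dcn-led neurons (0.022) and Schwann-like cells (-0.28) with thinned sums, and in antigen-presenting-like cells with no filter (0.10) and the stricter cell filter (0.0012). In non-myelinating Schwann-like cells P2ry12 was 0.015 with the replicate block, and marker score gave 0.053 for P2rx4, 0.47 for P2rx7 and 1.09 for P2ry12. P2ry14 in pericyte-like cells was -0.014 with DESeq2, -0.047 with upper-quartile factors and -0.026 with the stricter cell filter. The cause of these changes was not tested. Slc29a2 and Pnp in neurons stayed past the threshold in all 13 alternatives run.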
